A study of Solanum lycopersicum with 8 samples.

Results

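Lipoxygenases add oxygen to the polyunsaturated fatty acids linoleic and linolenic acid, and the position of that oxygen decides which products follow. In tomato, 9-lipoxygenases are abundant in fruit, while the plastid 13-lipoxygenases feed either the short-chain aldehydes and alcohols of fresh tomato aroma or the wound hormone jasmonic acid. The genes described here are LOXB and LOX1.1, which encode the fruit 9-lipoxygenases also called TomloxB and TomloxA, and loxD, which encodes a wound-responsive 13-lipoxygenase that supplies jasmonate synthesis. They were found by gene symbol or synonym in the platform's probe annotation, which names 802 genes, and each of the 3 genes is measured by 1 probe set. All 3 probe sets passed the filter on dim signal. Their gene identifiers in the annotation are 543997 for LOXB, 543994 for LOX1.1 and 544009 for loxD. No sequence or genome position is given for them here.

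Peel RNA was taken at the mature green fruit stage from untreated tomato plants (Solanum lycopersicum), grown in winter in a greenhouse kept above 12 °C. There were 4 genotypes: the wild type, cv. Ailsa Craig; Aft/Aft, carrying the Anthocyanin fruit allele; atv/atv, carrying atroviolacea; and the Aft/Aft atv/atv double mutant. By the labels, wild type and atv peel held no significant anthocyanin, Aft peel had limited spots of it and double mutant peel was strongly pigmented. Each genotype had 2 biological replicates on 1 array each, so 8 arrays limit the precision, and whether the replicates came from separate plants is not stated. The labels name a cultivar for the wild type only, so line background and genotype cannot be told apart. Values are log2 intensities after quantile normalization, so 1 unit is a doubling; levels of different probe sets cannot be compared with each other.

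Replicate arrays correlated with r of 0.977 to 0.988 over the 9493 probe sets tested, and the atv arrays stood apart: their correlation with the wild type arrays averaged 0.904, against 0.964 for Aft and 0.947 for the double mutant. Of the genes listed as cuticle markers, ltpg1 read 13.95 to 14.18, LE16 11.89 to 13.79 and TSW12 8.06 to 10.75 over all arrays. How well they check the peel label was not tested. ltpg1 lay close to the array maxima, where differences can be compressed. Of the ripe fruit genes that check the green stage, PG2, the polygalacturonase of ripe fruit, was at or below 3.18 on all arrays. E8 and ACS4 were detected on all arrays, at 5.09 to 6.64 and 5.65 to 8.14. ACS2 ran from 3.17 to 4.88. It was below the limit of 4 of the filter on dim signal on both Aft arrays (3.35 and 3.41) and on atv 2 (3.17). The mean 3' minus 5' signal of 6 pairs of control probe sets, a measure of RNA integrity, was 1.82 and 1.98 in the wild type, 1.53 and 1.75 in Aft, 1.62 and 1.71 in atv and 1.47 in both double mutant arrays. It was highest in the wild type and lowest in the double mutant, as were the 9-lipoxygenases, and its part in their levels was not tested. In whole peel, fewer cells of a type and less RNA per cell cannot be told apart.

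LOXB was highest in the wild type and lowest in the double mutant, with each single mutant in between. Its log2 intensity was 10.996 and 11.093 on the wild type arrays, 9.40 and 9.58 in atv, 8.69 and 8.44 in Aft, and 7.01 and 6.95 in the double mutant. No genotype overlapped another, and the widest gap between replicates was 0.24, in Aft. On the deposited linear scale this ran from 2188.8 and 2182.9 in the wild type to 123.0 and 98.2 in the double mutant. Every neighbouring pair in this order differed by limma, including atv and Aft, where Aft lay 0.93 lower in log2 units (SE 0.13, adjusted p = 0.0026). That comparison of the single mutants was added after the values were seen, and there 43.7% of all tested probe sets were called, 23.5% higher and 20.2% lower in Aft, against 3 lower of these 3.

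LOX1.1 followed a different order, since atv peel kept a level near that of the wild type. It read 12.89 and 12.90 in the wild type, 12.46 and 12.75 in atv, 11.34 and 11.22 in Aft, and 9.84 and 10.31 in the double mutant. Both lines with Aft lay below both lines without it. The wild type and atv arrays did not overlap, but their difference did not pass the test (-0.28, SE 0.19, 95% interval -0.74 to 0.17, adjusted p = 0.27). Its next neighbours in the order, atv and Aft, differed by -1.33 (Aft minus atv, SE 0.19, adjusted p = 0.0030). The brightest deposited value of LOX1.1 was 8049.3, against array maxima of 19560.1 to 21785.7. Signals this bright can still be compressed, so its changes are given as measured.

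loxD was lowest in the wild type and highest in atv. Its log2 intensity was 8.004 and 8.010 in the wild type, 8.80 and 8.46 in Aft, 10.44 and 10.86 in atv, and 9.85 and 9.97 in the double mutant. All 4 arrays carrying atv lay above all 4 arrays without it. On the deposited scale the wild type arrays read 269.4 and 254.6 and the atv arrays 1515.8 and 1801.9. Wild type and Aft, the lowest pair in the order, did not differ by the test (0.62, SE 0.18, 95% interval 0.17 to 1.07, adjusted p = 0.14).

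**Figure D1:**
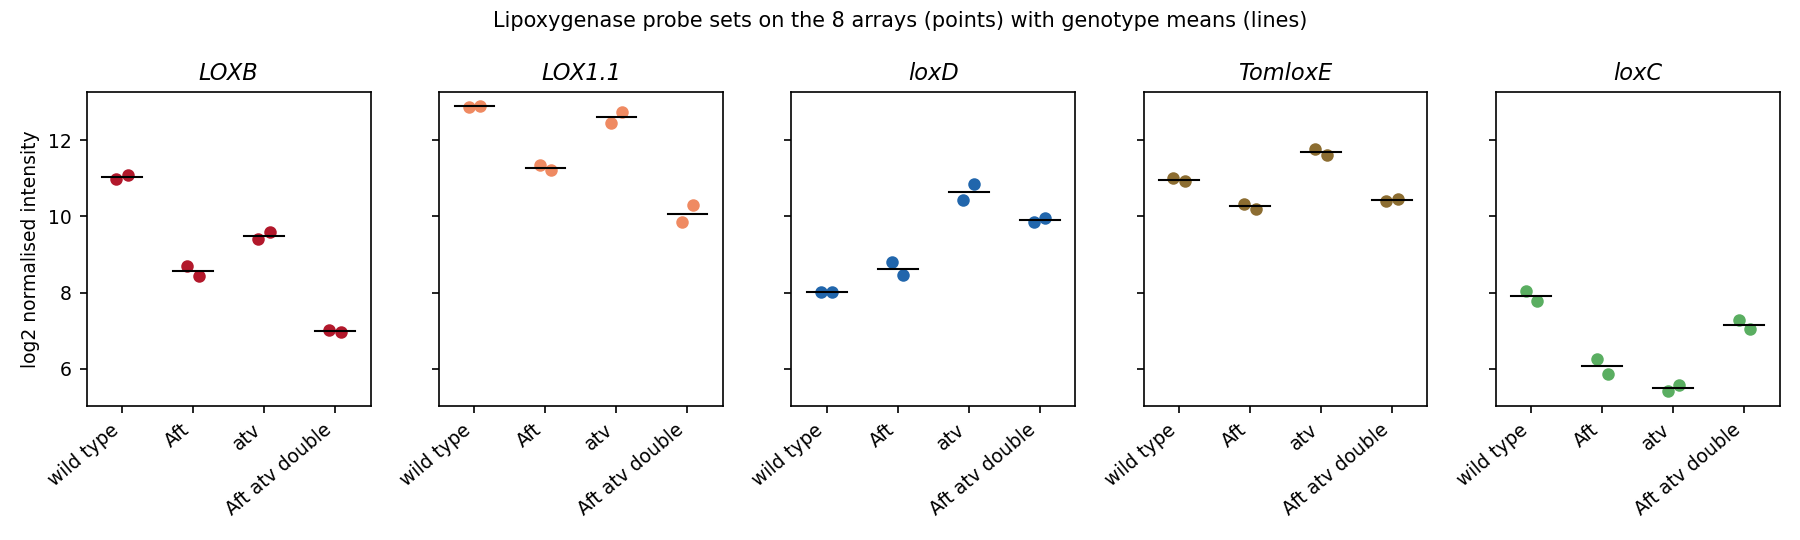
Log2 normalised intensity (vertical axis) of 5 lipoxygenase probe sets on the 8 arrays, by genotype; points are arrays and lines are means of 2. LOXB steps down from 11.04 in the wild type to 6.98 in the double mutant, LOX1.1 is low in both lines with Aft, loxD is high in both lines with atv, and the heights of different panels cannot be compared.

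The comparisons with the wild type share its 2 arrays and so are not independent of each other. What goes with the Aft allele alone was read from the Aft and wild type arrays. Both 9-lipoxygenases were lower. LOXB fell by 2.48 log2 units (SE 0.13, adjusted p = 0.00058), so its wild type level was 5.58-fold higher (95% interval 4.50 to 6.92), and its difference ranked 53 from the lowest among the 9493 tested. LOX1.1 fell by 1.61 (SE 0.19, adjusted p = 0.0075), a 3.05-fold difference (95% interval 2.22 to 4.20). Thus 2 of the 3 lipoxygenase probe sets were called lower and none higher, where 2.80% of all tested probe sets were called lower, 2.78% higher and 5.58% in either direction. The call of LOX1.1 ended without wild type 1 or wild type 2 (adjusted p = 0.061 for each) and without Aft 2 (adjusted p = 0.050), while its size stayed between -1.66 and -1.56.

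What goes with atv alone, in peel with no significant pigment, was read from the atv and wild type arrays. Here loxD rose by 2.64 (SE 0.18, adjusted p = 0.00027), or 6.25-fold (95% interval 4.58 to 8.53). LOXB fell by 1.56 (SE 0.13, adjusted p = 0.00046), a 2.94-fold difference (95% interval 2.37 to 3.64). With 1 lipoxygenase higher, 1 lower and LOX1.1 not called, the genes of the family went separate ways in this mutant. The background is large, however: 40.3% of all tested probe sets were called, 18.8% higher and 21.5% lower. Both calls were kept in all 14 alternative settings, with adjusted p of at most 0.0066 for LOXB when any 1 array was left out.

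In the double mutant all 3 genes differed from the wild type, 1 higher and 2 lower, against 7.39% of all tested probe sets higher, 5.73% lower and 13.1% in either direction. LOXB fell by 4.06 (SE 0.13, adjusted p = 0.00013), so the wild type level was 16.7-fold higher (95% interval 13.5 to 20.7), and its difference ranked 17 from the lowest among the 9493 tested. LOX1.1 fell by 2.81 (SE 0.19, adjusted p = 0.00092), a 7.03-fold difference (95% interval 5.11 to 9.67). loxD rose by 1.90 (SE 0.18, adjusted p = 0.0031), or 3.74-fold (95% interval 2.74 to 5.11). These 3 calls were kept in all 15 alternative settings.

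Adding atv to Aft was examined by setting the double mutant against the Aft mutant, where 4.10% of all tested probe sets were called, 2.52% higher and 1.58% lower. All 3 lipoxygenases were called, with LOXB and LOX1.1 lower and loxD higher. LOXB fell by a further 1.58 (SE 0.13, adjusted p = 0.0047), which is close in size to its fall of 1.56 when atv was added to the wild type. LOX1.1 fell by 1.203 (SE 0.19, adjusted p = 0.031) and loxD rose by 1.28 (SE 0.18, adjusted p = 0.023). The last 2 calls were fragile. Without any 1 of the wild type, Aft or double mutant arrays the adjusted p of LOX1.1 was 0.050 to 0.15 (difference -1.43 to -0.97 over all arrays left out) and that of loxD 0.066 to 0.14 (difference 1.11 to 1.43). Fitted on these 2 genotypes alone, LOX1.1 had adjusted p = 0.067 and loxD adjusted p = 0.053, and on the values as deposited loxD had adjusted p = 0.060, whereas LOXB was called throughout.

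Adding Aft to atv was examined by setting the double mutant against the atv mutant. All 3 genes were lower in the double mutant, where 19.3% of all tested probe sets were lower, 24.7% higher and 44.0% called in either direction. LOXB fell by 2.51 (SE 0.13, adjusted p = 9.1e-05), LOX1.1 fell by 2.53 (SE 0.19, adjusted p = 0.00032), and loxD fell by 0.74 (SE 0.18, adjusted p = 0.022). The loxD call ended without atv 2 (-0.53, adjusted p = 0.061), without double mutant 1 (-0.68, adjusted p = 0.095), without double mutant 2 (-0.80, adjusted p = 0.068) and with only these 2 genotypes in the fit (adjusted p = 0.055).

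**Figure D2:**
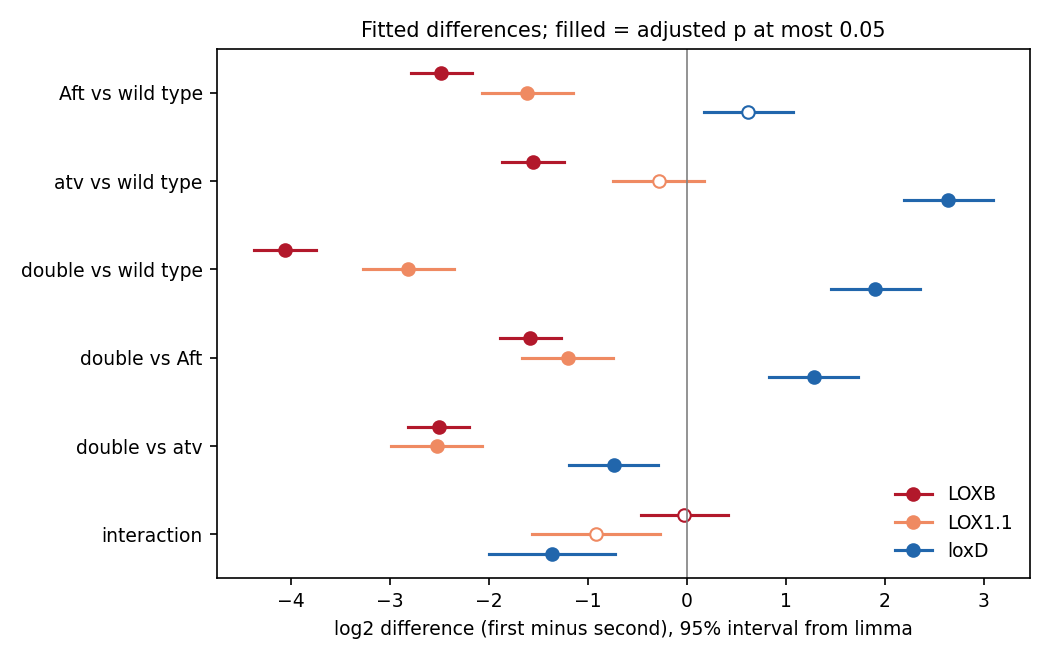
Fitted log2 differences (horizontal axis, first genotype minus second) with 95% intervals from limma for LOXB, LOX1.1 and loxD in the 6 comparisons. Filled points passed an adjusted p of 0.05; LOXB lies below 0 in every pairwise comparison and on 0 in the interaction.

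The interaction asks whether the effect of Aft is the same with and without atv; 24.2% of all tested probe sets were called. For LOXB the fitted effects of the alleles added up: the differences of the single mutants sum to -4.04, the double mutant stood at -4.06, and the interaction was -0.03 (SE 0.18, 95% interval -0.46 to 0.41, adjusted p = 0.94). That interval still allows a departure from additivity of up to 0.46 on the log2 scale. For loxD the double mutant was lower than the sum of its single mutant differences, 1.90 against 3.27, with an interaction of -1.36 (SE 0.26, adjusted p = 0.016). This call ended without wild type 1 (adjusted p = 0.061), wild type 2 (adjusted p = 0.060) or double mutant 1 (adjusted p = 0.055), with a difference between -1.59 and -1.16 over all arrays left out. LOX1.1 had a lower double mutant than the sum, -2.81 against -1.90. Its interaction missed the threshold after adjustment (-0.92, SE 0.26, unadjusted 95% interval -1.57 to -0.27, adjusted p = 0.055). It passed with values floored at 16 (adjusted p = 0.044) and without double mutant 2 (-1.15, adjusted p = 0.035).

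**Figure D3:**
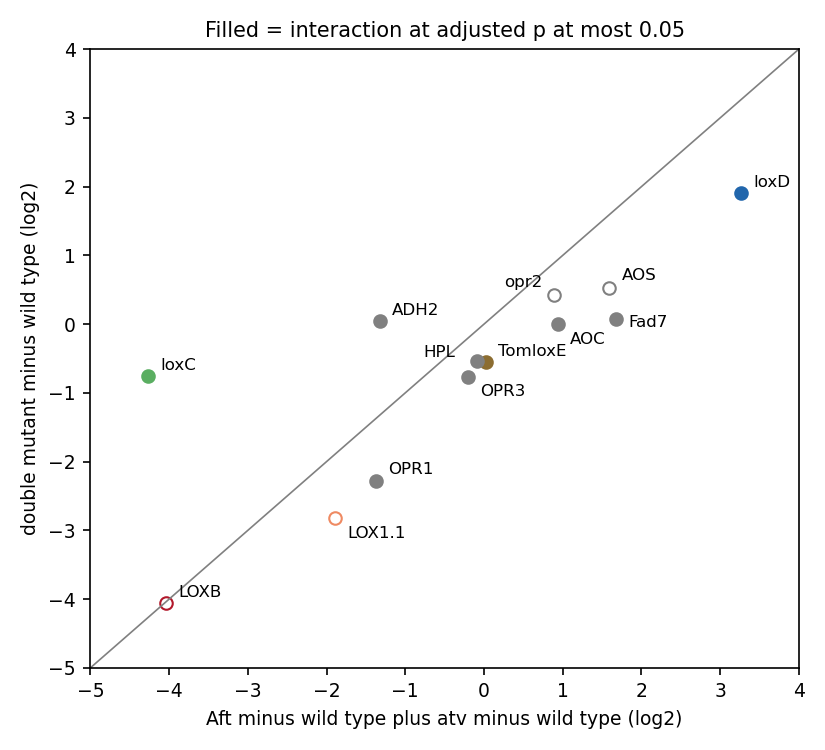
Sum of the single mutant differences from the wild type (horizontal axis, log2) against the double mutant's difference (vertical axis, log2) for 13 lipoxygenase and oxylipin probe sets; the line marks equality and filled points have an interaction with adjusted p of at most 0.05. LOXB lies on the line, loxC far above it and loxD, Fad7, OPR1 and AOC below it.

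The array carries 2 further lipoxygenase genes, which were set beside these 3. TomloxE, a lipoxygenase gene named here after its values were seen because the list spelled it otherwise, lies on the same chromosome as LOXB in the RefSeq assembly SLM_r2.1, with 2 protein-coding genes and 1 pseudogene annotated between them. Near as they are, they differed in direction in the atv mutant. TomloxE read 11.01 and 10.93 in the wild type, 10.33 and 10.21 in Aft, 11.76 and 11.62 in atv, and 10.40 and 10.45 in the double mutant. It rose by 0.72 in atv (SE 0.10, adjusted p = 0.0034), where LOXB fell, and this call ended on the values as deposited (adjusted p = 0.064). In Aft it fell by 0.70 (adjusted p = 0.017) and in the double mutant it fell by 0.55 (adjusted p = 0.025). Those falls were not called in 8 and 6 of the 15 alternatives, at adjusted p of 0.050 to 0.20 and of 0.054 to 0.17, among them the values as deposited and leaving out either wild type, Aft or double mutant array for the first and either wild type or double mutant array for the second.

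loxC encodes a plastid 13-lipoxygenase of the aroma pathway, and it did not move with loxD. It read 8.03 and 7.79 in the wild type, 6.26 and 5.86 in Aft, 5.40 and 5.58 in atv, and 7.29 and 7.03 in the double mutant. Each single mutant lay below the double mutant, an order not seen in LOXB, LOX1.1 or loxD. loxC fell by 1.85 in Aft (SE 0.19, adjusted p = 0.0043) and fell by 2.42 in atv (adjusted p = 0.00039). The double mutant did not pass against the wild type (-0.75, adjusted p = 0.053), and the interaction was 3.52 (SE 0.26, adjusted p = 0.00076), called in all 13 alternatives. Lipoxygenase genes are similar in sequence, and how far these probe sets share signal was not tested.

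The enzymes that supply or follow the lipoxygenases were read next. Fad7, the plastid desaturase that makes linolenic acid, was the single gene of its list on the array and rose by 1.58 in atv (SE 0.09, adjusted p = 0.00017). It stood at 0.11 in Aft (adjusted p = 0.69) and 0.08 in the double mutant (adjusted p = 0.59). Of 9 probe sets for the branches after lipoxygenase, DES, the divinyl ether synthase gene, and AAT, an alcohol acyltransferase gene, were too dim to test, at or below 3.67 and 3.78. Of the other 7, atv had 2 higher and 1 lower (median 0.08, against -0.11 over all tested probe sets), a share near the 40.3% of all tested probe sets called there. AOS and AOC, the allene oxide synthase and cyclase that turn loxD's product toward jasmonate, rose by 1.23 (SE 0.22, adjusted p = 0.0073) and 0.99 (SE 0.10, adjusted p = 0.00091). AOS was dim, at 4.56 to 6.09 over all arrays. ADH2, a fruit alcohol dehydrogenase of the aroma branch, fell by 1.29 (SE 0.14, adjusted p = 0.0015). In the double mutant none of these passed the test against the wild type: AOS at 0.52 (adjusted p = 0.16), AOC at 0.01 (adjusted p = 0.96) and ADH2 at 0.05 (adjusted p = 0.83), whereas loxD was 3.74-fold higher. The interaction was called for AOC and ADH2 but not for AOS (-1.07, adjusted p = 0.055).

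OPR1, an oxophytodienoate reductase of the family outside the main route to jasmonate, had the same order of genotypes as LOX1.1 apart from the wild type and atv. It read 11.33 and 11.29 in the wild type, 11.40 and 11.38 in atv, 9.91 and 9.81 in Aft, and 9.09 and 8.98 in the double mutant. It fell by 1.45 in Aft (SE 0.09, adjusted p = 0.0012) and fell by 2.28 in the double mutant (adjusted p = 0.00022), and in atv it was at 0.08 (adjusted p = 0.53). OPR1 was the 1 lower branch probe set of 7 in Aft, with none higher (median -0.05, against 0.0040 over all tested). There 2.80% of all tested probe sets were lower and 2.78% higher. In the double mutant 3 of 7 were lower and none higher (median 0.0082, against 0.035). The shares of all tested probe sets there were 5.73% lower and 7.39% higher. Beside OPR1 the lower branch genes were OPR3 and HPL. OPR3, the reductase of jasmonate synthesis, fell by 0.77 (adjusted p = 0.0077). HPL, the hydroperoxide lyase that makes aroma aldehydes, fell by 0.54 (adjusted p = 0.016). The call of OPR3 ended without wild type 1, wild type 2 or double mutant 2 (adjusted p 0.055 to 0.071). That of HPL ended without either wild type or double mutant array, on the values as deposited and with median centring (adjusted p 0.064 to 0.11). opr2 passed in none of these 3 comparisons.

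**Figure D4:**
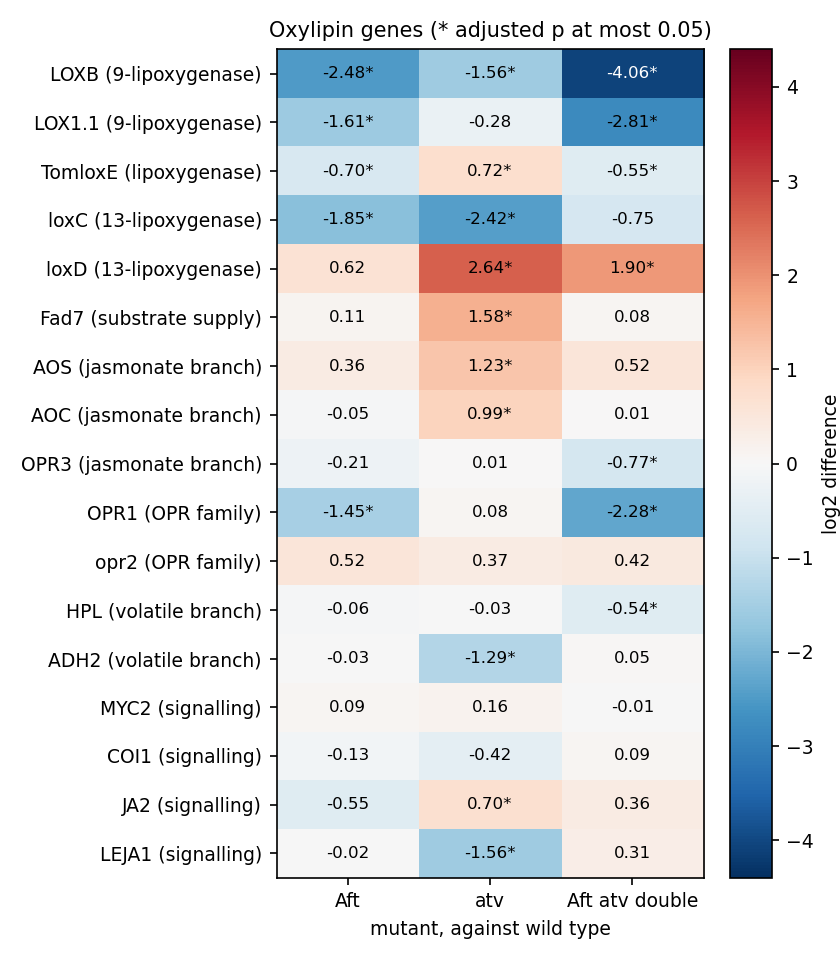
Log2 difference of each mutant (columns) from the wild type for the lipoxygenases, oxylipin genes and the 4 jasmonate signalling genes measured (rows); colour and printed number give the difference and * an adjusted p of at most 0.05. The atv column holds rises of loxD (2.64), Fad7 (1.58), AOS (1.23) and AOC (0.99), and the Aft and double mutant columns hold falls of LOXB, LOX1.1 and OPR1.

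Of the 4 jasmonate signalling genes measured, MYC2, COI1, JA2 and LEJA1, none was called in Aft or the double mutant, while in atv 1 was higher and 1 lower, where 40.3% of all tested probe sets were called. LEJA1 fell by 1.56 in atv (SE 0.18, adjusted p = 0.0015) and had an interaction of 1.88 (SE 0.25, adjusted p = 0.0050). JA2 rose by 0.70 in atv (SE 0.16, adjusted p = 0.018). COI1, the jasmonate receptor gene, stood at -0.13, -0.42 and 0.09 in Aft, atv and the double mutant, with adjusted p of 0.82, 0.11 and 0.74. MYC2, the central transcription factor of the jasmonate response, differed from the wild type by 0.09, 0.16 and -0.01 in Aft, atv and the double mutant, with adjusted p of 0.77, 0.24 and 0.95.

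Among genes listed as responding to jasmonate or wounding, 11 of 14 probe sets were tested, for 9 genes. The list was chosen with earlier results of these data known, and how well each gene marks a jasmonate response was not tested. In Aft 4 were higher and none lower (median 0.50, against 0.0040 over all tested), in atv 4 were higher and 2 lower (median -0.0090, against -0.11), and in the double mutant 5 were higher and 1 lower (median 0.41, against 0.035). Over all tested probe sets, 2.78% were higher and 2.80% lower in Aft, 18.8% and 21.5% in atv, and 7.39% and 5.73% in the double mutant. The called probe sets belong to 4 genes. ARG2 is counted by each of its probe sets, so these counts repeat it, and the median in Aft is the value of an ARG2 probe set. PIIF, a wound-induced proteinase inhibitor, ran in the order of wild type, double mutant, Aft and atv, at 5.33, 7.43, 8.02 and 10.16, and rose by 4.84 in atv (SE 0.27, adjusted p = 0.00014). ARG2, a wound-induced arginase gene, rose by 1.51, 2.58 and 1.63 in Aft, atv and the double mutant by the probe set with its lowest p (adjusted p of 0.0010, 4.4e-05 and 0.00058). Its other 2 probe sets were also called higher in atv and the double mutant, and 1 of them was not called in Aft (0.50, adjusted p = 0.28). The subtilisin-like protease gene sbt4a rose by 3.84 in Aft and 3.02 in the double mutant and fell by 1.65 in atv. ER1, a proteinase inhibitor gene, fell by 8.42 in atv, to 4.17 and 4.01, and fell by 0.52 in the double mutant (adjusted p = 0.030). Any link of these 4 genes to loxD was not tested. The rise of PIIF in the double mutant (2.11, adjusted p = 0.0078) lost its call when wild type 2 was left out (adjusted p = 0.055), and the fall of ER1 there was not called in 7 of 15 alternatives (adjusted p 0.051 to 0.19), which include the values as deposited, median centring and leaving out wild type 1, wild type 2, Aft 1, double mutant 1 or double mutant 2.

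Fruit 9-lipoxygenases are known to change with ripening, so ripening genes were read beside them. The regulator RIN was low in all 3 mutants: 8.63 in the wild type, 6.36 in the double mutant, 5.14 in Aft and 3.30 in atv, the last below the filter's limit of 4. Its order was not that of LOXB, which was lowest in the double mutant, and any link between them was not tested. Of 15 ripening probe sets tested, 2 were higher and 4 lower in Aft, 3 higher and 7 lower in atv, and 3 higher and 4 lower in the double mutant, with medians of -0.27, -0.58 and -0.27 against 0.0040, -0.11 and 0.035 over all tested. The shares of all tested probe sets called in these comparisons were 5.58%, 40.3% and 13.1%. Of the 6 calls in Aft, those of TBG4, PME2.1 and EXP1 were each lost as deposited, with median centring, with only the genotypes compared and without any 1 wild type, Aft or double mutant array, at adjusted p of 0.054 to 0.63. TBG4, a galactosidase of softening fruit, fell by 2.64 in atv (adjusted p = 6.1e-05) and fell by 0.93 in the double mutant (adjusted p = 0.0056). The second of these was not called as deposited (adjusted p = 0.076) or without wild type 1 (adjusted p = 0.051). PME2.1, a pectin methylesterase gene, fell by 1.05 in the double mutant (adjusted p = 0.0021), and the expansin gene EXP1 rose by 1.19 in atv (adjusted p = 0.00093). The fall of RIN in the double mutant (-2.27, adjusted p = 0.012) was not called without wild type 1, wild type 2 or double mutant 1 (adjusted p 0.062 to 0.085).

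Markers of other tissues and stages also differed in the atv mutant, where 40.3% of all tested probe sets were called against 13.1% in the double mutant and 5.58% in Aft. All 4 green plastid genes, CAB4, CAB5, CAB6A and PETE, rose in atv, where their summed normalised intensity was 55754.4 to 57034.5 against 27866.1 to 28104.6 in the wild type, 23773.5 to 25282.2 in Aft and 25841.0 to 26363.6 in the double mutant. None of the 4 was called in the double mutant. In Aft CAB5 was called lower (-0.76, adjusted p = 0.049) and the others were not called. Of the 3 genes listed as cuticle markers 2 rose in atv and in the double mutant. Their sum was 21018.6 to 21388.8 in the wild type, 22142.7 to 22864.1 in Aft, 31787.2 to 32107.7 in atv and 27580.0 to 27973.3 in the double mutant. The 2 genes listed as vascular markers, TPRP-F1 and SUT2, were both lower in atv (sum 881.9 to 934.8, against 1541.7 to 1637.8 in the wild type). TPRP-F1 was also lower in Aft (-1.81) and in the double mutant (-1.62), and SUT2 was called in neither (-0.01 and 0.09). The sum of both genes was 1353.1 to 1414.6 in Aft and 1464.8 to 1518.5 in the double mutant. How well these 2 genes mark vascular tissue, and the 3 before them cuticle, was not tested. The part of all these markers in the lipoxygenase levels was not tested either. The 2 trichome markers summed to 13.2 to 27.2 and the 2 seed markers to 4.2 to 30.0 over all arrays, near background in every genotype. The 4 ripe fruit markers summed to 375.8 to 378.3 in the wild type, 268.0 to 396.3 in Aft, 125.0 to 135.4 in atv and 199.3 to 222.5 in the double mutant; of the 3 tested, 2 were lower in atv and 1 in the double mutant.

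The named genes whose profile was most like each lipoxygenase were found by Pearson's r, as a description. It was taken over the 8 arrays, among 848 other named probe sets. The arrays share genotypes, so the 8 values behind each r are not independent of each other. EXPA6, an expansin, was nearest to LOXB (r = 0.989), followed by gts1 (r = 0.972) and LOC543802 (r = 0.968). EXPA6 ran from 9.15 and 9.27 in the wild type to 6.53 and 6.64 in the double mutant. For LOX1.1 the nearest were AN34 (r = 0.990), EXPA6 (r = 0.978) and OPR1 (r = 0.978), although AN34 spanned just 0.29 on the log2 scale. For loxD they were ca2 (r = 0.985), the phosphoenolpyruvate carboxylase kinase gene PPCK2 (r = 0.979) and the chaperonin gene CPN21 (r = 0.978). The spans of CPN21 and LOC543802 were also narrow, at 0.78 and 0.64. The ca2 probe set passed the filter through the atv arrays alone, at 5.63 and 6.31, and read 0 to 3.80 on the other 6 arrays, below the filter's limit. Likewise gts1 was below that limit on all 4 arrays with Aft, at 2.54 to 3.89. Other probe sets of EXPA6, gts1 and ca2 were less alike, with r of 0.62 for EXPA6 and 0.66 for gts1 with LOXB, 0.70 for EXPA6 with LOX1.1 and 0.41 for the other tested probe set of ca2 with loxD.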

How the data were processed

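The deposited table holds 1 intensity per probe set and array on a linear scale; GCRMA stands in the submitters' processing notes, with no version. No source used here says what the intensities are relative to. Array medians of the deposited intensities ran from 514.5 to 755.4. All 10209 probe sets were therefore quantile-normalized over the 8 arrays, raised to a floor of 1 and put on the log2 scale. The 171 controls were left out, and the test took the 9493 probe sets that reached log2 4 on 2 or more arrays of any genotype. Group means of all 8 arrays were fitted by limma 3.58.1 (R 4.3.3), whose empirical Bayes step added 1.77 degrees of freedom to the 4 left by the fit. Tests were two-sided, adjusted by Benjamini and Hochberg over all tested probe sets, with a threshold of 0.05. p-values measure the spread between these samples, which may be technical.

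The platform annotation names 909 probe sets, 885 of them matched by gene identifier to RefSeq's gene table. The members, gene lists and tests were chosen with earlier results of these data known. Named genes are the members, every gene of the lipoxygenase, fatty acid supply and oxylipin lists, the 4 genes with the lowest p of the jasmonate-responsive and ripening lists, and the 3 nearest profiles of each member; the signalling list is named whole. DAD1 was dropped from its list because its synonym, dad-1, left doubt whether it is the lipase meant; this was not tested. Simulated data had 50 of 9493 probe sets changed at each of 4 sizes in 1 comparison. The fit gave back 3 changes of 0.5, 31 of 1, 40 of 2 and 45 of 3 on the log2 scale. False calls were 9 of 128. The changes were placed on probe sets of middle brightness, below the wild type levels of LOXB and LOX1.1. The real comparisons called more probe sets, 389 to 4178, so these rates need not hold for them. The alternatives are given at the end.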

Additional observations from a re-analysis of the deposited data

Results flagged for a closer look

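For several oxylipin genes the effect of Aft differed by the interaction test between lines with and without atv. In that test 24.2% of all tested probe sets were called. Among the lipoxygenase, fatty acid supply and branch genes tested, LOXB, LOX1.1, AOS and opr2 were not called. Arrays with 2 replicates a group allow no test for single outlying samples. The interaction (effect of Aft with atv minus its effect without atv, log2) was -1.36 for loxD (adjusted p = 0.016), 3.52 for loxC (adjusted p = 0.00076), -1.60 for Fad7 (adjusted p = 0.0011), 1.37 for ADH2 (adjusted p = 0.0075), -0.90 for OPR1 (adjusted p = 0.0071) and -0.93 for AOC (adjusted p = 0.0071). It was -0.57 for TomloxE (adjusted p = 0.038), -0.56 for OPR3 (adjusted p = 0.035) and -0.45 for HPL (adjusted p = 0.048), and these last 3 were not called in 9, 10 and 11 of the 13 alternatives. The calls of OPR1 and AOC ended on the values as deposited (adjusted p = 0.12 and 0.071), and those of loxC, Fad7 and ADH2 were kept in all 13. Among the genes flagged, loxC and ADH2 are those whose double mutant lay above the sum of the single mutant differences.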

How the results depend on the processing

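LOXB in all 5 pairwise comparisons, loxD in atv and the double mutant, and LOX1.1 in the double mutant against wild type and atv kept direction and call in every alternative run. Calls of loxD and LOX1.1 between the double mutant and Aft ended with only those genotypes fitted (1.30 and -1.22), leaving 1 lipoxygenase called, and that of loxD ended as deposited (1.17); loxD between the double mutant and atv ended with only those genotypes fitted (-0.73). With a floor of 16 the interaction of LOX1.1 passed (-0.92), giving 2 lipoxygenases called. The interaction of LOXB, never called, changed sign without wild type 1 (0.018), Aft 1 (0.090) or atv 2 (0.065). The cause was not tested.

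Leaving out 1 array gave LOX1.1 in Aft -1.66 to -1.56, and between the double mutant and Aft -1.43 to -0.97 for LOX1.1 and 1.11 to 1.43 for loxD. It gave loxD between the double mutant and atv -0.96 to -0.53, and interactions of -0.14 to 0.090 for LOXB, -1.59 to -1.16 for loxD and -1.15 to -0.68 for LOX1.1. Lipoxygenases called were then 1 to 2 in Aft, 1 to 3 between the double mutant and Aft, 2 to 3 between it and atv, and 0 to 2 in the interaction.

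All probe sets called, in the order Aft, atv and double mutant against wild type, double mutant against Aft and against atv, and interaction, were 530, 3829, 1246, 389, 4178 and 2293. As deposited they were 290, 1987, 442, 76, 2252 and 872, and the share higher went from 46.7% to 60.9% in atv, 56.3% to 39.6% in the double mutant, 56.2% to 30.99% against atv and 51.7% to 31.1% in the interaction. The median difference of all probe sets was then -0.13 for the double mutant against wild type, in place of 0.035. Double mutant calls were 2269 against wild type and 903 against Aft without both atv arrays, 2530 and 224 with only the genotypes compared, and 584 against Aft with a floor of 16. With 1 array left out the 6 counts were 205 to 562, 2124 to 3825, 355 to 2211, 77 to 878, 2584 to 4237 and 1172 to 2606.

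Replicate numbers were not taken as pairs: deviations of replicate 1 correlated between genotypes at -0.035 to 0.18, and the labels name no shared batch. With the replicate number as a block the counts were 456, 3765, 1364, 356, 4111 and 2170, and no call of LOXB, LOX1.1 or loxD changed. Signals near background, such as DES, AAT and RIN in atv, limit what can be read at low levels.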
